A study of Mus musculus with 4 samples.

Results

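The 10 genes described here encode cyclic nucleotide phosphodiesterases (PDEs) and are Pde1a, Pde1c, Pde2a, Pde3a, Pde3b, Pde4a, Pde4b, Pde4d, Pde5a and Pde9a. They were found on the arrays as the probes whose systematic name is a RefSeq or Ensembl transcript of 1 of these genes. That gave 22 of the 55681 probes that are not controls, and 10 of the 21659 genes that could be named in this way. Of the 22 probes, 20 were well above background on all 4 arrays, and each of the 10 genes had at least 1 such probe. The other 2 probes, A_55_P2151591 for Pde3b and A_55_P2010401 for Pde4d, were not well above background on any array.

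Total RNA from hearts of male C57BL/6J mice was hybridized to 4 single-color Agilent arrays, 1 for each group. The groups were sham-operated hearts and hearts after transverse aortic constriction (TAC), a surgical narrowing of the aortic arch that loads the left ventricle with pressure, at 2 and 8 weeks after surgery. The labels give an age of 10 weeks for both groups at 2 weeks and of 16 weeks for both groups at 8 weeks, and the methods of the study give an older age at surgery than these labels allow. Each array held RNA pooled from several mice, so the spread between mice is unknown, no p-value could be computed, and every difference given is between 2 pools. Heart tissue contains many cell types, and fewer cells of a type and less RNA per cell cannot be told apart.

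Cyclic AMP and cyclic GMP carry hormone signals inside cells, and PDEs end these signals by hydrolyzing the cyclic nucleotides. In cardiac myocytes, cyclic AMP made after beta-adrenergic stimulation activates protein kinase A, which raises the rate and force of contraction, whereas cyclic GMP made after stimulation by natriuretic peptides or nitric oxide activates protein kinase G. The PDE4 enzymes hydrolyze cyclic AMP, PDE5 and PDE9 hydrolyze cyclic GMP, and PDE1, PDE2 and PDE3 act on both, with PDE1 activated by calmodulin, PDE2 activated by cyclic GMP and PDE3 inhibited by it.

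Pde4a, Pde4b and Pde4d, the PDE4 genes among the 10, were lower in TAC than in sham hearts at both times, by 1.22- to 1.41-fold at 2 weeks and by 1.35- to 1.86-fold at 8 weeks. Pde5a was also lower at both times, by 1.17- and 1.19-fold. Pde9a was higher by 1.55-fold at the earlier time and by 1.29-fold at the later one, and Pde3b by 1.42- and 1.21-fold. Pde1a, Pde1c, Pde2a and Pde3a stayed within 1.24-fold of sham at both times. These are the values of the brightest probe of each gene.

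The promoters of the PDE4 genes are shown because these genes had the lowest TAC over sham values of the 10. Each window holds 250 bases before and 50 bases after an annotated start, from RefSeq (GRCm38.p6), and is written 5′ to 3′ on the strand of the gene, which is the plus strand for all 4. The windows were searched on both strands for the cyclic AMP response element (CRE), TGACGTCA, and for its half-site, TGACG, which is contained in the full element and reads CGTCA on the other strand. Capitals mark a half-site. The first window lies at the start of the Pde4d transcript that its measured probes name (chr13:108653927-108654226), the second at the start of the Pde4a transcript named by both of its probes (chr9:21165464-21165763), the third at an upstream start of Pde4b (chr4:102421305-102421604), and the last at the start of the shorter Pde4b transcript (chr4:102589593-102589892).
Pde4d: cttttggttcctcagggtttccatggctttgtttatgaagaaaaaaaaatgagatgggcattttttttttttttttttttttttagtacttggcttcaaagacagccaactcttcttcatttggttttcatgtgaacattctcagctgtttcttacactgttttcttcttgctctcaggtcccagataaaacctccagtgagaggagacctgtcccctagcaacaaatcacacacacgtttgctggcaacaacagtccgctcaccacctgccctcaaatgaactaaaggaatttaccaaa
Pde4a: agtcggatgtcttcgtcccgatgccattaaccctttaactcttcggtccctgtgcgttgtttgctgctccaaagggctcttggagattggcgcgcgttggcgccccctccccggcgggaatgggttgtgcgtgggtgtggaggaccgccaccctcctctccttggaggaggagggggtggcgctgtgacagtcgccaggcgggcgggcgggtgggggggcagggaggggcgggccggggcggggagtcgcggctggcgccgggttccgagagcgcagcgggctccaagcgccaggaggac
Pde4b, upstream start: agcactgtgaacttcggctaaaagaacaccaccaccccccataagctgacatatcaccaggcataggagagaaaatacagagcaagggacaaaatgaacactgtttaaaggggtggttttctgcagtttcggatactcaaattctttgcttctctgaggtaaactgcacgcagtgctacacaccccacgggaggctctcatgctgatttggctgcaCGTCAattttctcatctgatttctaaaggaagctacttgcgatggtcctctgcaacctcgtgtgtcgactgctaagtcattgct
Pde4b, shorter transcript: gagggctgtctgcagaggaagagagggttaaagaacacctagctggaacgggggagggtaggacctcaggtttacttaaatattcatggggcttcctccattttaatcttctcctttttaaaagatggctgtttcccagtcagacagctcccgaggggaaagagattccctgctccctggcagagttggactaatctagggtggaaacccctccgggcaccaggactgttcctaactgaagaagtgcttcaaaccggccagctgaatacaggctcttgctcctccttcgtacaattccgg
Among these windows only the upstream Pde4b start held a half-site, and it is not the start of a transcript that a probe names. Another Pde4a window (chr9:21183851-21184150), not shown here, also held a half-site. No window was at hand for the start of NM_019840, the transcript that the brightest Pde4b probe names. RefSeq windows were at hand for 7 of the 10 genes (not Pde3a, Pde3b and Pde9a), 21 windows in all. None of the 21 held the full element, which is present in 1.79% of the 32851 windows of all genes, and 4 of the 21 held the half-site, which is present in 20.81% of all windows. A match is a run of letters and not a binding site.

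Levels are given as multiples of the array's 75th percentile over all probes that are not controls, and log2 changes as TAC minus sham on that scale. Levels of different probes were not compared, but those of marker genes were summed. As a measure of technical error, spots of the same probe printed several times on an array were used: the log2 TAC over sham ratio differed between spots with an SD of 0.0704 at 2 weeks and 0.0692 at 8 weeks for signals above the 75th percentile, 0.139 and 0.131 for signals of 0.25 to 1 times it, and 0.258 and 0.239 below that. Different probes of a gene differed with a pooled SD of 0.225 at both times over 3740 genes at 2 weeks and 3742 at 8 weeks. This is above the SD between spots except for the dimmest signals. The median over genes of the SD between probes was lower, at 0.0992 and 0.100. None of these SDs includes the spread between mice. Each PDE probe had 1 spot on each array.

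**Figure D1:**
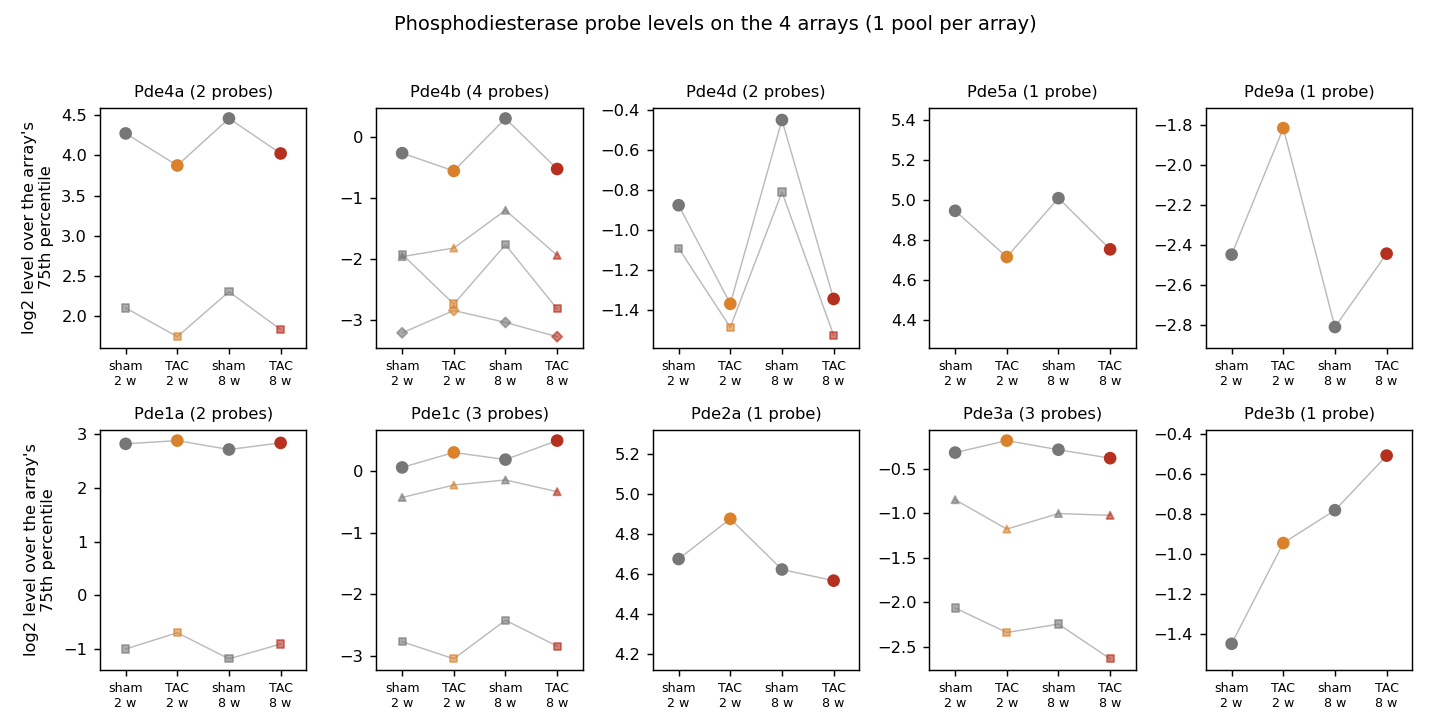
Level of each PDE probe that was well above background on all 4 arrays, as log2 over the array's 75th percentile (vertical axis), on the sham and TAC arrays at 2 and 8 weeks (horizontal axis). Large points are the brightest probe of each gene, small points its other probes, and lines join the 4 arrays of a probe; each panel has its own vertical range. Both Pde4d and both Pde4a probes were lower on each TAC array than on either sham array.

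Pde4d encodes a cyclic AMP phosphodiesterase found in protein complexes with the ryanodine receptor and beta-adrenergic receptors. Its brightest measured probe (A_65_P12530, NM_011056, 17 exons, chromosome 13) had a level of 0.545 in sham and 0.387 in TAC hearts at 2 weeks, and of 0.732 in sham and 0.394 in TAC hearts at 8 weeks. The TAC arrays were nearly equal and both lay below the sham arrays, of which the one at 8 weeks was the higher. The log2 change was −0.49 at 2 weeks and −0.89 at 8 weeks, more than 3 times the SD between spots of that signal. The other measured probe (A_55_P2010396), for the same transcript, gave −0.39 and −0.72. The probe for a different transcript, A_55_P2010401 (ENSMUST00000079975), was not well above background in any group.

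Pde4b encodes a cyclic AMP phosphodiesterase that is tied to L-type calcium channels in cardiac myocytes. Its brightest probe (A_65_P01319, NM_019840, 15 exons, chromosome 4) had a level of 0.837 in sham and 0.683 in TAC hearts at 2 weeks, and of 1.24 in sham and 0.699 in TAC hearts at 8 weeks. As for Pde4d, the TAC arrays were close to each other, and the sham array at 8 weeks stood above the other 3. The log2 changes were −0.29 and −0.83.

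The other probes of Pde4b differed from this one at 2 weeks. The probe A_52_P149801 names the same transcript and had levels of 0.264 and 0.150 in sham and TAC hearts at 2 weeks, then of 0.295 and 0.142. Its log2 changes were −0.82 and −1.05, and it was the only one of the 20 measured probes with a change of more than 2-fold, which it had at 8 weeks (2.08-fold lower). The third probe of this transcript, A_52_P423247, had 0.257 and 0.284 at 2 weeks and 0.437 and 0.261 at 8 weeks, a log2 change of 0.14 and then −0.74. Thus all 3 probes of NM_019840 were lower in TAC at 8 weeks, whereas at 2 weeks 2 were lower and 1 was higher, by about the SD between spots. The probe of the shorter transcript ENSMUST00000106901 (9 exons, A_55_P2107542) was higher at 2 weeks and lower at 8 weeks, with 0.108 and 0.139 and then 0.122 and 0.103, and its change of −0.23 at 8 weeks was within the SD between spots.

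Pde4a encodes the remaining PDE4 enzyme of the 10. Its brightest probe (A_55_P2029191, NM_183408, 15 exons, chromosome 9) had a level of 19.3 in sham and 14.7 in TAC hearts at 2 weeks, and of 22.0 in sham and 16.3 in TAC hearts at 8 weeks. Both TAC arrays lay below both sham arrays. The log2 changes were −0.40 and −0.44, more than 5 times the SD between spots above the 75th percentile, and the other probe of the transcript (A_55_P2029187) gave −0.36 and −0.47.

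Over the 8 measured probes of Pde4a, Pde4b and Pde4d, 6 were lower in TAC than in sham hearts at 2 weeks, with a range of −0.82 to 0.37 and a median of −0.38, and all 8 were lower at 8 weeks, with a range of −1.05 to −0.23 and a median of −0.73. Of all 20 measured PDE probes, 10 were lower at 2 weeks and 15 at 8 weeks. The share of all measured probes in each direction was not counted. Of the 8 PDE4 probes, 4 belong to Pde4b, and probes of the same gene are not independent. Sham hearts at 8 weeks had higher values than sham hearts at 2 weeks with all 8 PDE4 probes, by 0.16 to 0.76 on the log2 scale. The changes at 8 weeks were taken over these later sham hearts. TAC hearts at the 2 times differed by a median of −0.0076, with a range of −0.43 to 0.15. Pde4c, the PDE4 gene that is not among the 10, did not share these values, with a level of 321 in sham and 308 in TAC hearts at 2 weeks and of 299 in sham and 307 in TAC hearts at 8 weeks (log2 changes of −0.06 and 0.04). Probe sequences were not at hand, so whether this very bright probe reads Pde4c was not checked. The later change minus the earlier one was −0.54 for Pde4b, −0.40 for Pde4d and −0.04 for Pde4a. These differences share no array between the times, but age and pool cannot be told apart, and with 1 pool for each group the difference was not tested.

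**Figure D2:**
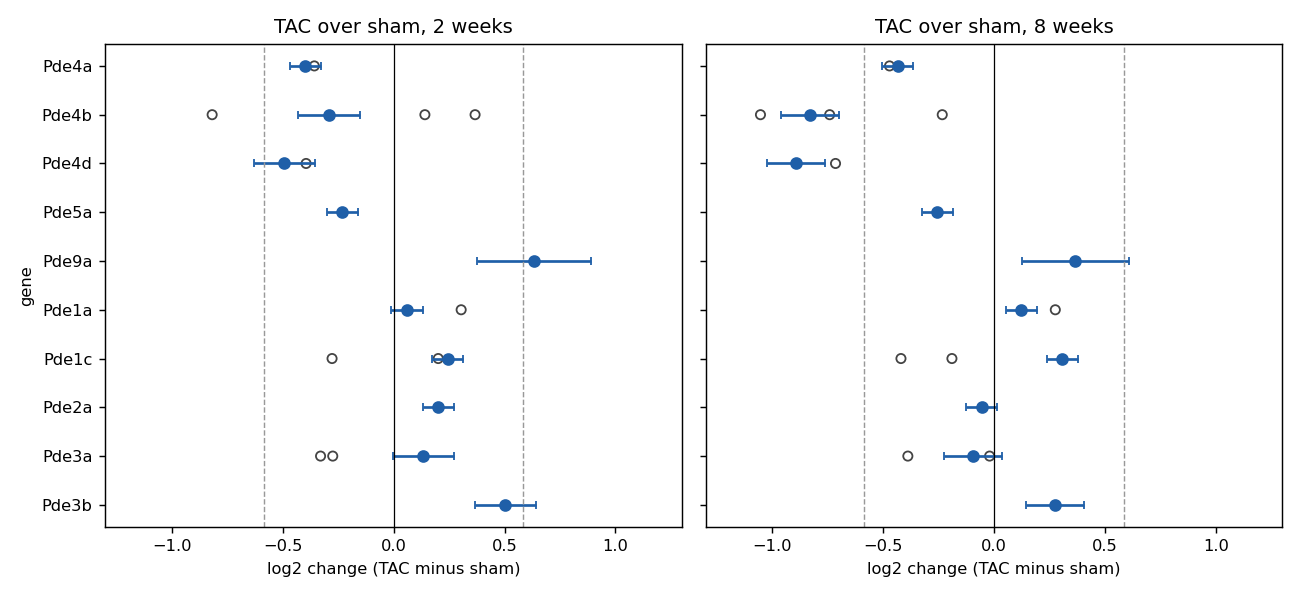
Log2 change (TAC minus sham, horizontal axis) of each PDE gene at 2 weeks (left) and 8 weeks (right). Filled points are the brightest probe with the SD between spots of that signal as the bar, open circles are the other measured probes of the gene, and dashed lines mark a 1.5-fold change; Pde4b and Pde4d lie beyond the lower line at 8 weeks and Pde9a beyond the upper line at 2 weeks.

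Of the enzymes that hydrolyze cyclic GMP, PDE5 is the target of sildenafil. The probe of Pde5a (A_55_P2042778, NM_153422, 21 exons, chromosome 3) had a level of 30.8 in sham and 26.3 in TAC hearts at 2 weeks, and of 32.2 in sham and 27.0 in TAC hearts at 8 weeks. Both TAC arrays lay below both sham arrays, with log2 changes of −0.23 and −0.26. These are over 3 times the SD between spots and about the size of the pooled SD between probes of a gene.

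PDE9 has the highest affinity of the family for cyclic GMP. The probe of Pde9a (A_51_P383194, NM_008804, 19 exons, chromosome 17) was dim on all arrays, with a level of 0.183 in sham and 0.284 in TAC hearts at 2 weeks, and of 0.142 in sham and 0.184 in TAC hearts at 8 weeks. The TAC array at 2 weeks stood above the other 3, and the TAC array at 8 weeks was level with the sham array at 2 weeks. The log2 changes were 0.63 and 0.37, against an SD between spots of 0.258 and 0.239. With another background correction (normexp) they were 0.25 and 0.05.

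Pde3a and Pde3b encode the cyclic GMP-inhibited enzymes, of which PDE3A is the target of milrinone and PDE3B acts in insulin signaling. The measured probe of Pde3b (A_55_P2032538, NM_011055, 16 exons, chromosome 7) had a level of 0.367 in sham and 0.520 in TAC hearts at 2 weeks, and of 0.582 in sham and 0.704 in TAC hearts at 8 weeks. TAC was above sham at each time, by 0.50 and 0.27 on the log2 scale, but the sham array at 8 weeks was above the TAC array at 2 weeks, so the groups overlapped across the times. The sham arrays differed by 0.67, more than either TAC change. The other probe, A_55_P2151591 (ENSMUST00000032909), was not well above background in any group.

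The brightest probe of Pde3a (A_55_P2071406, ENSMUST00000043259, 16 exons, chromosome 6) had a level of 0.801 in sham and 0.879 in TAC hearts at 2 weeks, and of 0.819 in sham and 0.767 in TAC hearts at 8 weeks. Its log2 changes of 0.13 and −0.09 were within the SD between spots. Its other probes, both of NM_018779, gave −0.27 and −0.39 (A_55_P2049373) and −0.33 and −0.02 (A_55_P2071402), so the probes of Pde3a differed in sign at 2 weeks.

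Pde2a encodes the cyclic GMP-stimulated enzyme. Its probe (A_55_P2105542, NM_001143848, 31 exons, chromosome 7) had a level of 25.5 in sham and 29.3 in TAC hearts at 2 weeks, and of 24.6 in sham and 23.7 in TAC hearts at 8 weeks. The TAC array at 2 weeks was the highest and the TAC array at 8 weeks the lowest. The log2 change was 0.20 at 2 weeks, and the change of −0.06 at 8 weeks was within the SD between spots and turned positive with median centering, with normexp and without normalization between the arrays.

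Pde1a and Pde1c encode calmodulin-dependent enzymes. The brightest probe of Pde1c (A_52_P208222, NM_001025568, 17 exons, chromosome 6) had a level of 1.04 in sham and 1.23 in TAC hearts at 2 weeks, and of 1.13 in sham and 1.40 in TAC hearts at 8 weeks, with log2 changes of 0.24 and 0.31. The probes of its 2 other transcripts did not share this pattern. NM_011054 (A_52_P108243) gave −0.28 and −0.42, and NM_001159953 (A_55_P1974830) gave 0.20 and −0.19, so at 8 weeks 1 of the 3 probes was higher in TAC hearts and 2 were lower.

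The brightest probe of Pde1a (A_55_P2145441, chromosome 2) names ENSMUST00000125887, which is annotated as a processed transcript with 4 exons and not as a protein-coding one. Its level was 7.09 in sham and 7.39 in TAC hearts at 2 weeks, and 6.58 in sham and 7.17 in TAC hearts at 8 weeks, and its log2 changes were 0.06 and 0.12. The probe of the protein-coding transcript NM_001009978 (A_55_P1974845, 13 exons) had 0.498 and 0.615 at 2 weeks and 0.439 and 0.531 at 8 weeks, changes of 0.30 and 0.28. Both probes were higher in TAC than in sham hearts at each time, but the change of 0.06 was within the SD between spots.

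None of the 10 genes was more than 2-fold higher or lower at either time, compared with 0.884% of the 14247 genes well above background on all 4 arrays that were higher and 0.47% that were lower at 2 weeks, and with 1.74% and 0.835% at 8 weeks. At 1.5-fold, 1 gene was higher (Pde9a; 4.09% of all genes) and none lower (2.41%) at 2 weeks, and none was higher (5.24%) and 2 were lower (Pde4b and Pde4d; 3.73%) at 8 weeks. Over the 10 genes the median log2 change was 0.10 and then −0.08, beside −0.0073 and −0.0099 over all genes. By probe, 1 of the 20 was more than 2-fold lower at 8 weeks, compared with 0.882% of 18811 probes. Between the sham arrays, 1 gene was more than 1.5-fold higher at 8 weeks (Pde3b; 1.58% of all genes), and between the TAC arrays, 1 was more than 1.5-fold lower at 8 weeks (Pde9a; 2.69%).

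The direction was the same at both times for 8 of the 10 genes, 4 lower and 4 higher. Of all measured genes, 36.6% were lower at both times and 33.3% were higher at both times. Both TAC arrays lay below both sham arrays for 4 genes (Pde4a, Pde4b, Pde4d and Pde5a), as for 25.7% of all genes, and above both for 3 (Pde1a, Pde1c and Pde9a), as for 23.8%. This count was chosen after the values were seen. For Pde9a it rested on levels of 0.184 (TAC at 8 weeks) and 0.183 (sham at 2 weeks), and for Pde1a on 7.17 and 7.09 on the same arrays. Without normalization between the arrays it was 1 gene below and 4 above, and with the 75th percentile over measured probes it was 4 below and 1 above.

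**Figure D3:**
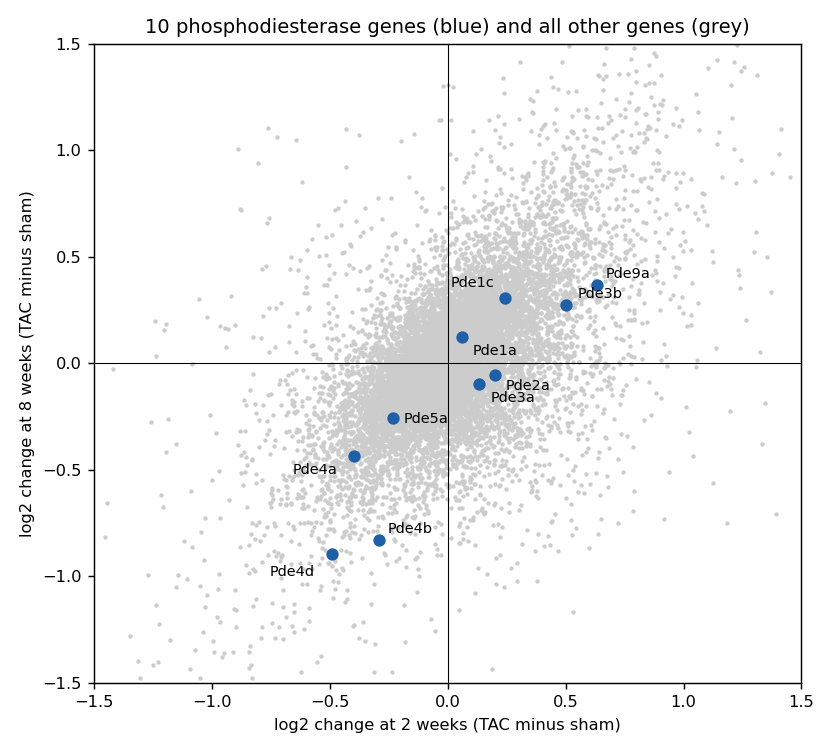
Log2 change (TAC minus sham) at 2 weeks (horizontal axis) and 8 weeks (vertical axis) of the 10 PDE genes (blue) and of the other genes well above background on all 4 arrays (grey), 1 probe for each gene; 144 genes lie outside the axes. Pde4b and Pde4d lie at the lower edge of the blue points and within the grey cloud.

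Pde4d had the largest sum of absolute log2 changes over both times of the 10 genes (1.39). The genes nearest to it over 3 log2 differences (TAC over sham at each time and sham at 8 over sham at 2 weeks), among 14237 genes that are not in the set, were Pitpnm3 at a Euclidean distance of 0.0846, Syt15 at 0.133 and Pigz at 0.146. Their log2 changes were −0.41 and −0.89 for Pitpnm3, −0.49 and −0.78 for Syt15, and −0.57 and −0.77 for Pigz. In all, 11 genes lay closer than 0.2. Pitpnm3 and Syt15 were dim, at signals where the SD between spots was 0.258 and 0.239, which is above the distances given. Likeness over 4 arrays is a description only.

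The rest of the pathway was described from 8 lists with 76 genes, of which 62 passed the background filter on each array. At 1.5-fold, 2 of the 62 were higher and 4 lower at 2 weeks, and 4 were higher and 4 lower at 8 weeks, beside 4.09% and 2.41% of all genes at 2 weeks and 5.24% and 3.73% at 8 weeks. Their median was −0.05 at the earlier time and −0.08 at the later one on the log2 scale. Pde8a, a high-affinity cyclic AMP phosphodiesterase, was higher in TAC than in sham hearts, with 1.05 in sham against 1.76 in TAC at 2 weeks, then 1.21 against 2.00 at 8 weeks (log2 changes of 0.74 and 0.73). It was 1 of the 11 measured genes among 14 other PDE genes and the only one of them beyond 1.5-fold at 8 weeks. At 2 weeks Pde7a was lower (−0.75), and at 8 weeks it was at −0.14.

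Upstream of cyclic AMP, the adenylyl cyclase gene Adcy7 had a level of 1.08 in sham and 2.56 in TAC hearts at 2 weeks, then of 1.31 and 3.41, log2 changes of 1.24 and 1.38. It was the only one of 6 measured adenylyl cyclase genes that was higher by more than 1.5-fold at either time. Adcy1 was lower beyond this limit at 2 weeks (−0.68, and −0.23 at 8 weeks), at low levels of 0.285 in sham and 0.179 in TAC hearts. Of the 6 measured receptor and G protein genes, 3 were lower by more than 1.5-fold at 8 weeks (3.73% of all genes). These were Adrb1, the main beta-adrenergic receptor of cardiac myocytes (−0.43 at 2 weeks and −0.79 at 8 weeks), Adrb3 (−0.33 and −1.13), and Gnai1, an inhibitory G protein subunit (−0.75 and −0.59). Adrb3 and Gnai1 were dim on all arrays. Among guanylyl cyclases and natriuretic peptide receptors none of 6 was beyond 1.5-fold, and the largest value at 8 weeks was that of the clearance receptor gene Npr3 (−0.07 and 0.54).

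Downstream, 2 of 12 measured effector genes were higher by more than 1.5-fold at 8 weeks (5.24% of all genes), Prkg1, which encodes cyclic GMP-dependent protein kinase (0.57 at 2 weeks and 0.88 at 8 weeks), and Prkar1a, a regulatory subunit of protein kinase A (0.33 and 0.67). Of 8 genes for phosphorylation targets and CRE-binding factors, Ryr2, the ryanodine receptor of the sarcoplasmic reticulum, was lower by more than 1.5-fold at 8 weeks (−0.15 and −0.63). Of 11 anchoring protein genes, Akap7 was beyond this limit at 2 weeks (−0.78) and none at 8 weeks, when Akap5 was the farthest from 0 (−0.58). The 2 exporter genes were within 1.5-fold at both times, with Abcc5 at −0.15 and −0.11.

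**Figure D4:**
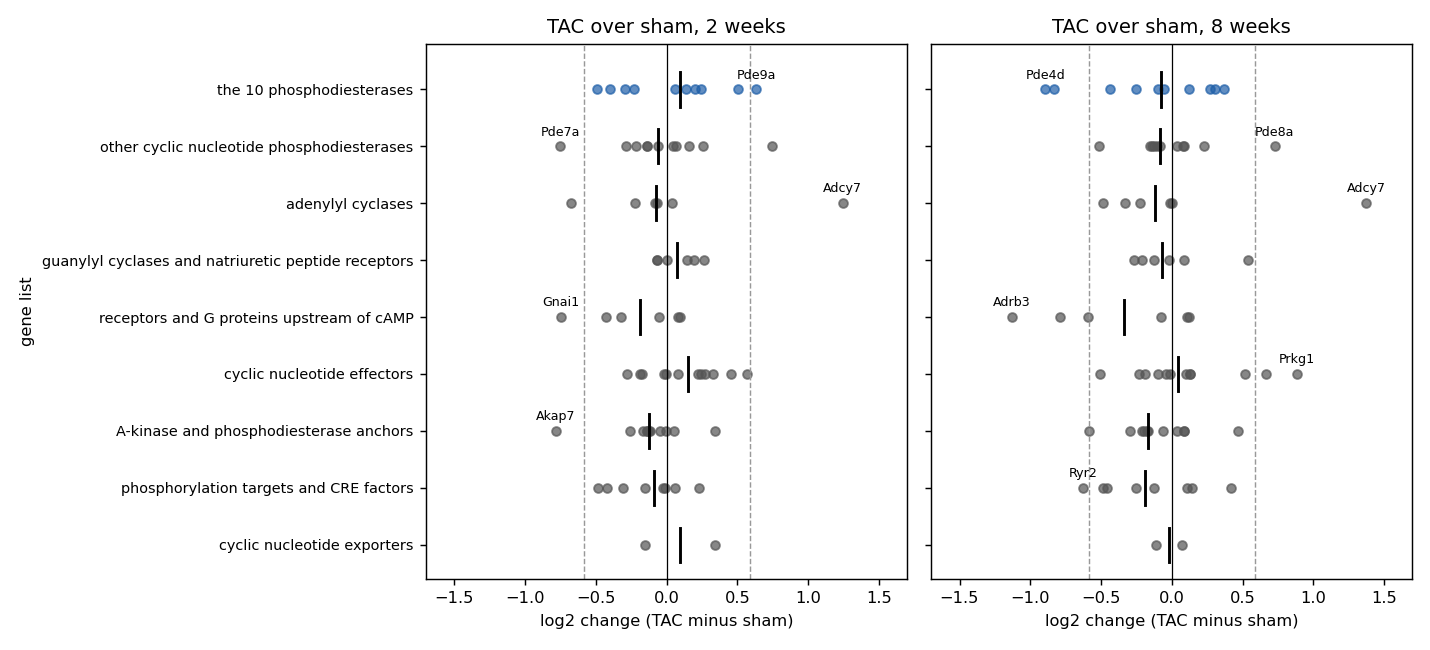
Log2 change (TAC minus sham, horizontal axis) at 2 weeks (left) and 8 weeks (right) of the 10 PDE genes and of 8 lists of other genes of the cyclic nucleotide pathway (vertical axis). Points are genes well above background on all 4 arrays, vertical bars are list medians, dashed lines mark a 1.5-fold change, and the farthest gene beyond it is named in each list; Adcy7 has the largest change at both times.

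The signal at the 75th percentile ranged from 206 to 248 over the 4 arrays, and the share of probes well above background from 54.7% to 58.5%. Genes known to be induced by pressure overload were higher in TAC hearts at both times, with log2 changes of 1.84 and 2.65 for Nppa, 1.03 and 1.94 for Nppb, 2.71 and 3.69 for Myh7, 3.09 and 3.41 for Acta1, and 1.28 and 1.99 for Ankrd1. The summed level of 5 cardiomyocyte markers was 5174 in sham and 4747 in TAC hearts at 2 weeks and 4950 and 4346 at 8 weeks. Of these 5, 2 were higher in TAC hearts at 2 weeks and 1 at 8 weeks. Actn2 was higher at both times (log2 changes of 0.16 and 0.23). The summed level of 6 fibroblast markers was 166 and 210 and then 191 and 259, with 3 of the 6 (Col1a1, Lum and Postn) more than 1.5-fold higher at both times. Dcn made up most of that sum, with 143 and 162 and then 167 and 203, and Tcf21 was lower in TAC hearts at 8 weeks (log2 changes of 0.07 and −0.55). The summed level of 5 macrophage markers was 31.8 and 39.6 and then 32.5 and 41.1, that of 5 endothelial markers 172 and 212 and then 176 and 162, that of 6 smooth muscle and pericyte markers 61.1 and 70.6 and then 62.8 and 60.7, and that of 4 lymphocyte markers 15.1 and 15.6 and then 15.4 and 13.8. Egfl7 made up most of the endothelial sum, with 119 and 159 and then 130 and 118. Of the 5 endothelial markers, 4 were higher in TAC hearts at 2 weeks and 1 at 8 weeks. At 8 weeks 5 of the 6 smooth muscle and pericyte markers were higher in TAC hearts. Acta2 was lower, with 27.2 in sham and 20.6 in TAC hearts. Of 3 atrial markers, Myl4 was measured on all 4 arrays, with a level of 3.08 and 3.06 and then 3.85 and 2.69. Sln had 0.0773 and 0.0929 and then 0.120 and 0.0354, the last not well above background, and Myl7 had 0.0489 and 0.0778 and then 0.170 and 0.0303, the first and last not well above background. All 3 atrial markers were highest on the sham array at 8 weeks, as were the brightest probes of Pde4a, Pde4b, Pde4d and Pde5a. Those of Pde1a, Pde1c, Pde2a, Pde3a, Pde3b and Pde9a were each highest on a TAC array. The share of all genes that were highest on that array was not counted, and a link between these values was not tested. Of 4 adipocyte markers 3, and of 4 skeletal muscle markers 3, were not well above background on any array. The part of these shifts in the PDE values was not tested.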

How the data were processed

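The 4 samples were pools of heart RNA, 1 for each group. The authors scanned single-color Agilent arrays (probe annotation on mm9), and per the file headers Feature Extraction 10.7.3.1 was used, whereas the submitters' processing notes name 9.1. The intensity deposited for each spot had its background subtracted and was spatially detrended, with no scaling between arrays. A table of all 4 arrays, also deposited, has this intensity multiplied by 1 constant per array. Log2 of the processed signal minus log2 of the array's 75th percentile over probes that are not controls was used, without spots flagged as outliers. Probes were named by transcript through RefSeq and GENCODE vM21 (29359 of 55681 probes). The probe with the highest mean log2 signal stood for a gene. A gene counted as higher or lower beyond 2-fold (or 1.5-fold) when its probe was well above background on the brighter array. All probes of the 10 genes are named; of the pathway lists, the genes beyond 1.5-fold in 1 direction at both times and the farthest from 0 at 8 weeks in each list are named. Adrb1, Adcy1, Prkar1a, Pde4c, Pde7a and Akap7 were named after their values were seen. The 10 genes and the lists were chosen with earlier results of these data known. Alternatives were other normalizations, background correction, filters, fold thresholds and summaries over probes. One list beyond the 8 pathway lists was left out and is not reported here. The counting was tested on simulated data. Computations used Python 3.11.15, pandas 2.3.3, numpy 2.4.6, limma 3.58.1 and R 4.3.3.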

Additional observations from a re-analysis of the deposited data

Results flagged for a closer look

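Probes of 2 genes were higher in TAC hearts at one time and lower at the other, by more than the SD between spots each time. The Pde4b probe A_52_P423247 had a log2 change of 0.14 at 2 weeks and −0.74 at 8 weeks. The Pde1c probe A_55_P1974830 had a log2 change of 0.20 at 2 weeks and −0.19 at 8 weeks. The difference between the times was not tested, since each group is 1 pool.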

How the results depend on the processing

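Of 180 values of single genes under alternative settings, 152 moved by less than the SD between spots (0.138) and 10 had the opposite sign. Pde4a, Pde4b and Pde5a were lower in TAC hearts at both times under each of the 9 alternatives run, and Pde9a was higher. Pde4d was lower under all of them except the mean over all its probes, which includes the probe below background and gave 0.14 at 8 weeks. That mean also turned Pde3b to −0.38 at 8 weeks, left 1 gene beyond 1.5-fold at 8 weeks and put 1 beyond 2-fold between the sham arrays. With the mean over all probes, or over the measured probes, the median of the 10 genes at 2 weeks was −0.0476. Without normalization, the median at 8 weeks was 0.0926, with the median of all genes shifted by 0.17, and 2 genes were beyond 1.5-fold between the sham arrays, and between the TAC arrays the gene beyond 1.5-fold was 1 higher in place of 1 lower, with the median of all genes shifted by 0.27. With normexp, none was beyond 1.5-fold at 2 weeks, between the sham arrays or between the TAC arrays. With quantile normalization or median centering, none was beyond 1.5-fold between the TAC arrays. Lowering the threshold from 2-fold to 1.5-fold raised the counts from 0 to 1 at 2 weeks, 2 at 8 weeks, 1 between sham and 1 between TAC arrays. No paired analysis was possible because each group has 1 array. Dim probes such as that of Pde9a limit what can be read from a change of less than 0.258 on the log2 scale, and the mice in a pool cannot be separated.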
